A study of Mus musculus with 6 samples.

Results

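The 10 genes described here encode enzymes of serine synthesis (Phgdh, Psat1 and Psph), of the exchange of serine and glycine (Shmt1 and Shmt2), of mitochondrial folate metabolism (Mthfd2, Mthfd1l and Aldh1l2) and of proline synthesis (Aldh18a1 and Pycr1). They were taken by their symbols in the array annotation and not by a measured value, but earlier results of these data were known. They are covered by 16 of the 55681 probes on the array, which carry 35527 different gene names. The cells were 3T3, an established line of mouse embryonic fibroblasts, treated for 48 h with 50 nM of either GapmeR Ntep or a GapmeR control. A GapmeR is an antisense oligonucleotide whose DNA core lets RNase H cut the RNA it pairs with, and Ntep is the long non-coding RNA targeted here. Each of 3 independent experiments gave 1 array per GapmeR, so 3 arrays labelled GapmeR Ntep (Ntep-labelled arrays below) were compared with 3 labelled GapmeR control (control arrays). Both groups received a GapmeR, so cells without any GapmeR are not part of the comparison. After testing several GapmeRs against Ntep, the study went on with a single sequence. Effects of losing Ntep and of that sequence therefore cannot be told apart here.

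Cells build serine from an intermediate of glycolysis in a short chain of reactions, which Phgdh begins and Psph ends. Serine hydroxymethyltransferases then split serine into glycine and a one-carbon unit that is carried by folate, and the mitochondrial enzymes oxidise that unit to formate for the synthesis of purines and thymidylate. Proline is made from glutamate in mitochondria by a neighbouring route. In fibroblasts both glycine and proline are used in bulk for collagen. Many of these genes are known targets of the transcription factor ATF4, which acts in the response to amino acid shortage and other stress.

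The targeted transcript, named A630089N07Rik in the array annotation, has 1 probe (chromosome 16, bases 98283712 to 98283771, mm9). Its normalized signal on the Ntep-labelled arrays was 471.9, 91.45 and 226.2 in experiments 1, 2 and 3, against 271.4, 272.4 and 361.2 on the control arrays. The groups overlapped, and in experiment 1 the Ntep-labelled array was the higher one. The log2 difference was -0.48 (SE 0.58, n = 3 each, limma adjusted p = 0.632). By qPCR, the paper reports that GapmeR Ntep suppressed the transcript in the same cell line after the same time. Whether the RNA of these arrays was used in that assay is not stated. Where the GapmeR pairs relative to this probe was not analysed here. Directions below are therefore those of the labels, and values without experiment 1 stand beside them for the 10 genes, except for Psat1 and Shmt2, whose values are in the closing section. Per array, between 43.7% and 53.3% of probes were well above background and none was saturated. All 8 fibroblast markers were well above background on all 6 arrays. Their summed signal was 454900 to 598600 on the Ntep-labelled arrays and 672600 to 744700 on the control arrays. Of these 8 markers, 6 were lower on the Ntep-labelled array in each experiment, against 26.7% of all tested probes. The collagen genes Col1a1 and Col3a1 were among them, in experiment 1 with a log2 difference of -0.53 and -1.15. Vim was higher in experiment 1 (0.07) and Thy1 in experiment 2 (0.35). Of 7 macrophage markers, 4 were well above background on all arrays and 2, Ptprc and Adgre1, on none. The macrophage sum was 42430 to 75210 on the Ntep-labelled arrays and 19900 to 27380 on the control arrays. Itgam was its largest part on each array, at 45780 in the highest sum. Among the 5 tested, Itgam, Cd68, Cd14 and Csf1r were higher (1.255, 1.21, 1.11 and 3.19), and Lyz2 was lower (-0.18). A dimmer Itgam probe stood at -0.025. For Csf1r the groups overlapped (SE 1.12, limma adjusted p = 0.151), and its other tested probe stood at 0.44. Of 4 epithelial markers, 2 were well above background on all arrays, with sums of 783.2 to 2656 against 476.7 to 1487. Most of the highest sum in each group was Krt14 (2223 and 1207, both in experiment 1). Krt14 differed by 1.39 with overlap, and Krt5, the other of the 2, by -0.39. Of 4 endothelial markers, 2 were well above background on all arrays and 2 on none, with sums of 728.3 to 805.6 against 558.8 to 634.6. The part of these markers in the results below was not tested, and in bulk RNA fewer cells of a type and less RNA per cell cannot be told apart.

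By the brightest probe of each gene, 7 of the 10 enzymes had a higher mean and 3 a lower one on the Ntep-labelled arrays, where 54.5% of all tested probes were higher. Mthfd2, the mitochondrial methylene-tetrahydrofolate dehydrogenase, had the largest positive difference, at 2.22-fold. Pycr1, a last-step enzyme of proline synthesis, had the largest negative one, although Aldh18a1, which opens the same route, was higher. Psph and Shmt1 were moderately higher with no overlap between the groups, while Psat1, Shmt2 and Mthfd1l differed little by their brightest probes. No gene of the 10 passed an adjusted p under 0.05 (Benjamini-Hochberg over 30990 tested probes, limma), where 2.09% of all tested probes passed higher and 3.21% lower. At an unadjusted p under 0.05, 3 genes were higher and 0 lower, against 12.5% of all tested probes in each direction.

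At the study's own limits, a fold change of at least 2 with an unadjusted p under 0.01, only Mthfd2 of the 10 genes passed. Among all tested probes 3.08% passed these limits higher and 5.06% lower. The groups did not overlap for 3 of the 10 genes, Psph, Shmt1 and Mthfd2, all of them higher, against 17% of all tested probes higher and 15.1% lower. In all 3 experiments 5 genes were higher and 1 was lower, against 32.4% and 26.7% of all tested probes. The median log2 difference of the genes was 0.30, against 0.06 over all tested probes. By experiment the median of the genes was 0.31, 0.33 and 0.38, and that of all tested probes 0.03, 0.06 and 0.03. Members of a pathway are not replicates, so this median carries no test.

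Arrays of the same experiment deviated from their group means together, so a fit with the experiment as a block was run beside the unpaired one. In it 3 of the 10 genes passed the adjusted p, Mthfd2 and Aldh18a1 higher and Pycr1 lower. That fit called 6.54% of all tested probes higher and 7.31% lower. The 3 calls were lost with another moderation of the variance. With limma's prior variance estimated over all probes, including the dim ones that were not tested, the blocked adjusted p was 0.0978 for Mthfd2, 0.0768 for Aldh18a1 and 0.101 for Pycr1, and no gene of the 10 passed.

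**Figure D1:**
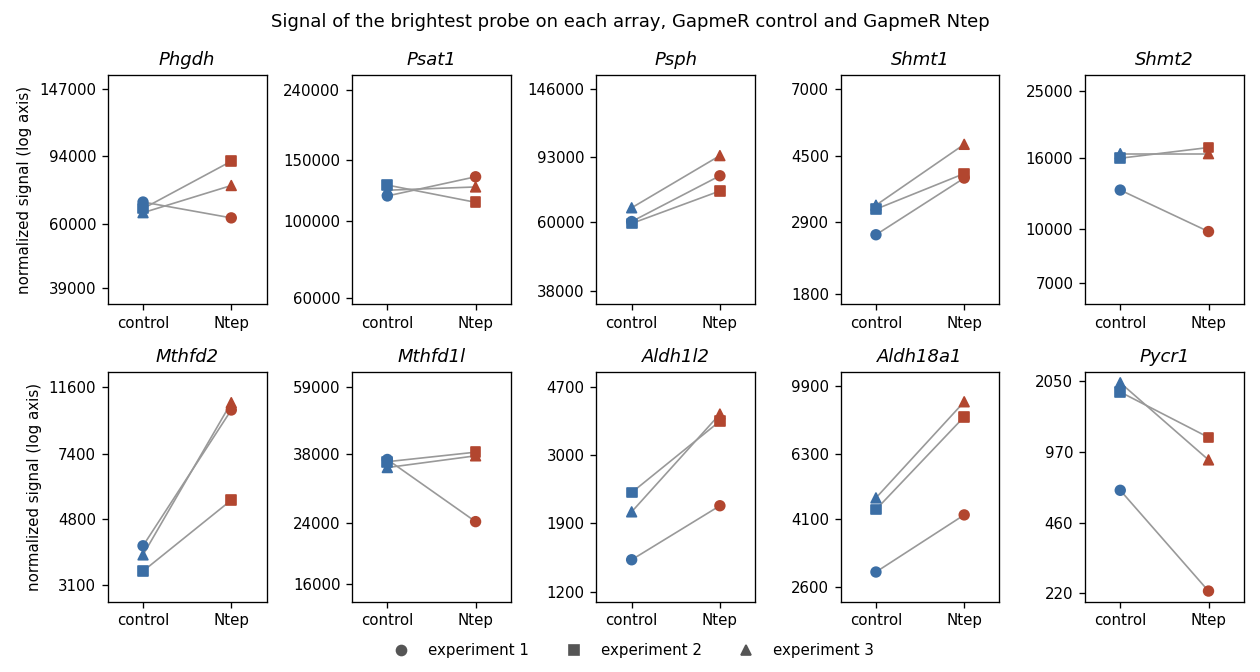
Quantile-normalized signal (log axis) of the brightest probe of each gene on the 3 control and 3 GapmeR Ntep arrays, with a line joining the arrays of an experiment; each panel spans the same fold range except Pycr1, whose range is wider. Lines for Mthfd2, Psph, Shmt1, Aldh1l2 and Aldh18a1 go up in all 3 experiments and those of Pycr1 go down, while the level of Aldh18a1, Aldh1l2 and Pycr1 in experiment 1 lies below the other 2 experiments in both groups.

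Serine synthesis begins with Phgdh, the phosphoglycerate dehydrogenase (brightest probe on chromosome 3, bases 98117215 to 98117274 in mm9). It read 62360, 90900 and 77330 on the Ntep-labelled arrays and 69290, 66320 and 64550 on the control arrays. The GapmeR Ntep array of experiment 1 lay below all controls and the other two lay above them. The log2 difference was 0.19 (SE 0.20, adjusted p = 0.574), and a neighbouring probe gave 0.30 (adjusted p = 0.41). Without experiment 1 the brightest probe stood at 0.36 (adjusted p = 0.219).

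Psat1, the aminotransferase of the second step, gave different answers by its probes. The brightest one, at bases 15979622 to 15979681 of chromosome 19, read 134500, 113500 and 125700 on the Ntep-labelled arrays and 118400, 127300 and 123000 on the control arrays. These groups overlapped fully, with a log2 difference of 0.02 (SE 0.16, adjusted p = 0.958). The dimmer one lies 11964 bases away, at 15991586 to 15991645, on the 5′ side of a gene listed on the minus strand. It read 17330, 20050 and 16960 against 11850, 11840 and 9862, so every Ntep-labelled array lay above every control. Its log2 difference was 0.70 (SE 0.17, 95% interval 0.28 to 1.12), or 1.62-fold, with an unadjusted limma p of 0.00669 and an adjusted p of 0.0726.

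Psph, the phosphatase that releases free serine, was higher by both probes. The brightest probe (chromosome 5, bases 130271441 to 130271500) read 81850, 73980 and 93590 on the Ntep-labelled arrays and 60370, 59600 and 66150 on the control arrays. The groups did not overlap, and the log2 difference was 0.42 (SE 0.17, 95% interval 0.00 to 0.83, adjusted p = 0.197). The dimmer probe, 867 bases towards the 5′ side, read 9645, 8909 and 16120 against 5686, 5890 and 6908. Here too the groups were apart, with a log2 difference of 0.86 (SE 0.27, adjusted p = 0.12). Without experiment 1 the brightest probe gave 0.41 (adjusted p = 0.244).

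The serine hydroxymethyltransferases of the cytosol and of mitochondria had different values. Shmt1, the cytosolic form, read 3882, 3999 and 4858 on the Ntep-labelled arrays and 2663, 3157 and 3241 on the control arrays (chromosome 11, bases 60603099 to 60603158). Every GapmeR Ntep array was above every control, by 0.49 on the log2 scale (SE 0.18, 95% interval 0.05 to 0.93, adjusted p = 0.166). A second probe 17354 bases away gave 0.56 (SE 0.19, adjusted p = 0.138), again without overlap. The brightest probe of Shmt1 stood at 0.46 without experiment 1 (adjusted p = 0.167). Shmt2, the mitochondrial form, read 9842, 17210 and 16520 against 12970, 16030 and 16520 (chromosome 10, bases 126954811 to 126954870). Its log2 difference was -0.10 (SE 0.27, 95% interval -0.76 to 0.56, adjusted p = 0.845), and it was lower in experiment 1 alone. Within an array, the log2 ratio of the Shmt1 signal to the Shmt2 signal was higher on all Ntep-labelled arrays than on any control, by 0.59 on average. An exact two-sided permutation test gave p = 0.1, the smallest that 3 against 3 arrays allow.

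In mitochondria, Mthfd2 and Mthfd1l carry out consecutive steps towards formate, and Aldh1l2 oxidises formyl-tetrahydrofolate to carbon dioxide. Mthfd2 read 9925, 5451 and 10420 on the Ntep-labelled arrays and 4023, 3399 and 3787 on the control arrays (chromosome 6, bases 83256518 to 83256577). The means were 8598 ± 2737 and 3736 ± 314.8 (SD, n = 3 each). All Ntep-labelled arrays lay above the controls, and the array of experiment 2 lay closest to them. The log2 difference was 1.15 (SE 0.29, 95% interval 0.44 to 1.85), with 1.30, 0.68 and 1.46 in the 3 experiments. Its unadjusted limma p was 0.0072 and its adjusted p 0.0749, or 0.0456 with the experiment as a block. Leaving out the GapmeR Ntep array of experiment 2 gave 1.45 (adjusted p = 0.0397), and leaving out experiment 1 gave 1.07 (adjusted p = 0.168).

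Mthfd1l, the formyl-tetrahydrofolate synthetase that acts after Mthfd2, did not follow it. Its brightest probe read 24170, 38360 and 37440 on the Ntep-labelled arrays and 36540, 36010 and 34630 on the control arrays (chromosome 10, bases 6190563 to 6190622). A low value on the GapmeR Ntep array of experiment 1 set the sign of the difference, -0.13 (SE 0.23, adjusted p = 0.748), which became 0.10 without experiment 1. The dimmer probe gave -0.20 (adjusted p = 0.526), with overlap. It was lower in all 3 experiments, by -0.41, -0.15 and -0.02. The within-array log2 ratio of Mthfd2 to Mthfd1l was higher by 1.28 on the Ntep-labelled arrays, with 1.90, 0.59 and 1.35 in the 3 experiments and no overlap (exact two-sided permutation p = 0.1).

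Aldh1l2 read 2134, 3745 and 3926 on the Ntep-labelled arrays and 1490, 2329 and 2049 on the control arrays (chromosome 10, bases 82950571 to 82950630). Experiment 1 was low in both groups, so the groups overlapped although the GapmeR Ntep array was the higher one in every experiment. The log2 difference was 0.71 (SE 0.31, 95% interval -0.05 to 1.48, adjusted p = 0.224), with 0.52, 0.68 and 0.94 in the 3 experiments. It was 0.81 without experiment 1 (adjusted p = 0.07).

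**Figure D2:**
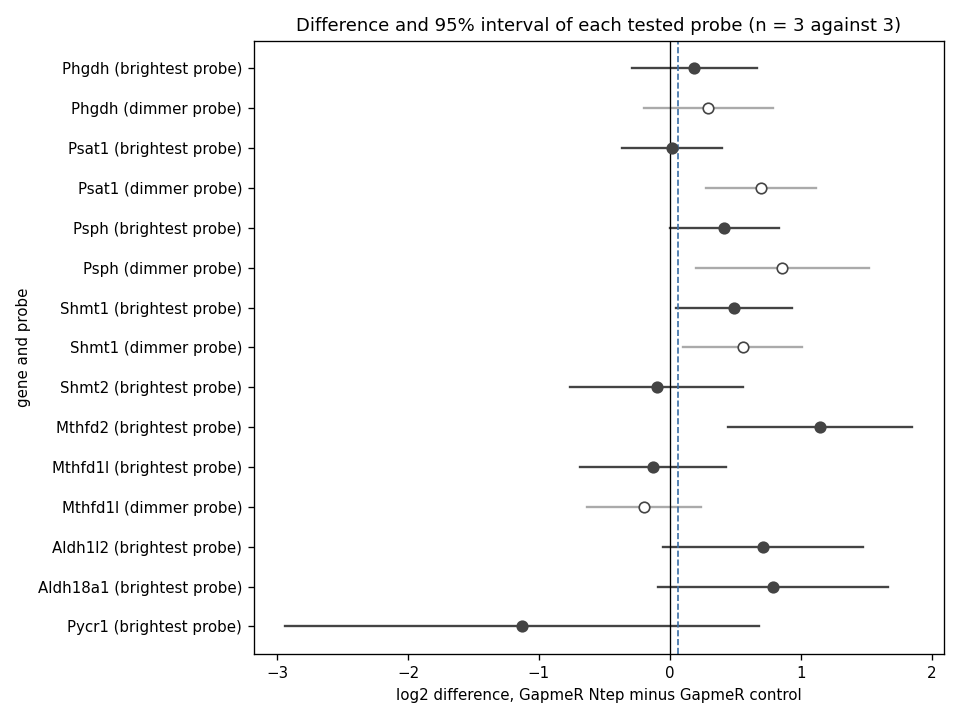
Log2 difference (GapmeR Ntep minus GapmeR control, n = 3 against 3) with its 95% interval for the 15 tested probes, filled for the brightest probe of a gene and open for a dimmer one; the dashed line is the median of all tested probes, 0.06. The interval of Mthfd2 (0.44 to 1.85) lies above 0, that of Pycr1 (-2.94 to 0.68) is the widest, and the probes of Psat1 stand at 0.02 and 0.70.

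The enzymes of proline synthesis went opposite ways. Aldh18a1, which turns glutamate into the precursor of the proline ring, read 4209, 8084 and 8930 on the Ntep-labelled arrays and 2879, 4362 and 4713 on the control arrays (chromosome 19, bases 40624730 to 40624767). As with Aldh1l2, the group overlap came from experiment 1, which was low in both groups. The log2 difference was 0.79 (SE 0.36, 95% interval -0.09 to 1.66, adjusted p = 0.24, with the experiment as a block 0.0494). Within experiments it was 0.55, 0.89 and 0.92, and without experiment 1 it was 0.91 (adjusted p = 0.063).

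Pycr1, a mitochondrial reductase that completes proline, read 224.7, 1133 and 894 on the Ntep-labelled arrays and 649.1, 1827 and 2014 on the control arrays (chromosome 11, bases 120501179 to 120501238). Each GapmeR Ntep array was below the control of its own experiment, but the control of experiment 1 was below the GapmeR Ntep arrays of the other two. The log2 difference was therefore imprecise in the unpaired fit, at -1.13 (SE 0.74, 95% interval -2.94 to 0.68, adjusted p = 0.394). With the experiment as a block its adjusted p was 0.0474, the differences within experiments being -1.53, -0.69 and -1.17. Arrays of experiment 1 moved the value most, to -0.41 (adjusted p = 0.721) without its Ntep-labelled array and -1.65 (0.23) without its control, while without both it was -0.93 (0.078). A second probe was well above background on only 1 array and was not tested. The within-array log2 ratio of Aldh18a1 to Pycr1 was higher on all Ntep-labelled arrays than on any control, by 1.92 (SD 0.29 over 3 experiments, exact two-sided permutation p = 0.1). This ratio and those of Shmt1 to Shmt2 and of Mthfd2 to Mthfd1l were the 3 computed, were picked after the values had been seen, and have a p of 0.1 after Benjamini-Hochberg adjustment as well. Since no smaller p was possible, the ratios are given as a description.

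**Figure D3:**
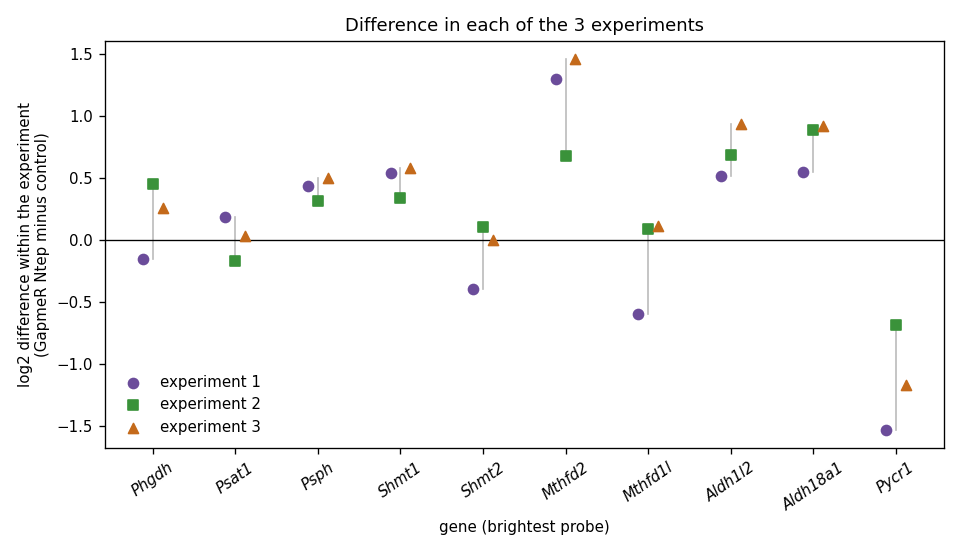
Log2 difference of the brightest probe within each of the 3 experiments (1 GapmeR Ntep array minus 1 control array), by gene. Mthfd2 is at 1.30, 0.68 and 1.46, Pycr1 at -1.53, -0.69 and -1.17, and the points of Phgdh, Psat1, Shmt2 and Mthfd1l fall on both sides of 0 or on it.

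Of the 5 genes with 2 tested probes, the dimmer probe had the larger absolute difference in all 5. Among all 4165 genes on the array with exactly 2 tested probes this was so for 57.4%. The probes of a gene differed by more than 0.5 on the log2 scale in 1 of the 5 genes, Psat1, and in 32.8% of all such genes. The same contrast was seen in Atf4, the known activator of several of these genes. Its brightest probe gave 0.36 (SE 0.16, adjusted p = 0.224), with no overlap between the groups. A dimmer Atf4 probe 1263 bases towards the 5′ side read 13640, 10180 and 12640 on the Ntep-labelled arrays and 5426, 3636 and 4384 on the control arrays. It was higher by 1.45 (SE 0.22, adjusted p = 0.0312). Myc, another activator of these genes, differed by 0.22 (SE 0.20, adjusted p = 0.54), with overlap.

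Promoter windows from RefSeq (GRCm38.p6, 250 bases before to 50 bases after the start) were found for 9 of the 10 genes. They were searched on both strands for TGATGNAA, a response element bound by ATF4 and C/EBP factors, and for CACGTG, the E-box bound by Myc and related factors. The letters of the first occurred in the window of 1 gene, Pycr1, and in 3.97% of all 32851 windows. Those of the second occurred in 1 gene, Aldh18a1, and in 7.15% of all windows. The 150 bases before the start are shown for these proline enzymes, whose signals differed in opposite directions, and for Mthfd2, with the matched letters in capitals. All 3 lie on the minus strand and are written 5′ to 3′ along the gene.
Pycr1 (chr11:120643749-120643898): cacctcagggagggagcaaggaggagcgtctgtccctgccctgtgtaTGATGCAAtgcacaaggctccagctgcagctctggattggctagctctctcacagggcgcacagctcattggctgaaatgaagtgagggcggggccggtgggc
Aldh18a1 (chr19:40588464-40588613): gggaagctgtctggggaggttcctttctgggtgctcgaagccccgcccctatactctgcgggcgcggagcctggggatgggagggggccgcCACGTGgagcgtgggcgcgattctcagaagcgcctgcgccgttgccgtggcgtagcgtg
Mthfd2 (chr6:83317605-83317754): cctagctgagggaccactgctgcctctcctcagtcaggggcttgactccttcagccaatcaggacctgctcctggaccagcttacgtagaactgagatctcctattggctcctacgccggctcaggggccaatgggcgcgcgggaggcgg
The Pycr1 match runs from base -103 to base -96 before the start, and that of Aldh18a1 from base -59 to base -54. A match is a match of letters and not evidence of binding, and a window without one says nothing on the factor.

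Around these enzymes, 38 further genes of folate, methionine, serine and proline metabolism were listed, and 36 had a tested probe. Their log2 differences were above 0 for 19 and below it for 17, and the median was 0.05, beside 0.06 for all tested probes. Those past the adjusted p were Cbs and Cth, both higher, and they are the genes of transsulfuration, in which homocysteine takes up serine and is turned into cysteine. Cbs, the synthase of cystathionine, read 673.7, 195 and 237.2 on the Ntep-labelled arrays and 58, 40.73 and 44.49 on the control arrays. It rose by 2.74 (SE 0.49, adjusted p = 0.0379), but its probe was well above background on 1 of 3 control arrays. The control mean of 47.74 lay under the limit of 50, so the probe was tested only through the group in which it was high, and the size of its difference is uncertain. With a different background correction (normexp) the difference was 1.36 (adjusted p = 0.0601).

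Cth, the lyase that yields cysteine, read 8833, 10150 and 15930 on the Ntep-labelled arrays and 4671, 3944 and 4722 on the control arrays. It rose by 1.35 (SE 0.26, adjusted p = 0.0458) and was higher in all 3 experiments, as was a second probe at 1.20 (adjusted p = 0.0749). The call of Cth was lost without any 1 of the 6 arrays (adjusted p 0.0654 to 0.182). That of Cbs was lost when the Ntep-labelled array of experiment 3 (0.121) or the control array of experiment 1 (0.0757), 2 (0.161) or 3 (0.158) was left out. Without experiment 1 the adjusted p was 0.0502 for Cbs and 0.0732 for Cth.

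Sdsl and Prodh, which act in the breakdown of serine and of proline, had the lowest log2 differences of the wider list. Sdsl, a serine dehydratase-like enzyme, read 1693, 2605 and 1808 on the Ntep-labelled arrays and 3238, 4632 and 5307 on the control arrays, without overlap. Its log2 difference of -1.11 (SE 0.27, adjusted p = 0.0725) passed the study's fold and p limits and, with the experiment as a block, the adjusted p (0.046). Prodh, the mitochondrial proline dehydrogenase, read 471, 1188 and 1024 against 1511, 2005 and 1889. It differed by -1.11 as well (SE 0.38, adjusted p = 0.143), with no overlap. Sfxn1 and Srr, the remaining tested genes of serine transport and breakdown, stood at -0.06 and -0.48 by their brightest probes. Their dimmer probes had the other sign, at 0.08 and 0.15, and for both genes the groups overlapped by either probe.

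Gldc, the decarboxylase of the glycine cleavage system, differed by 0.89 (SE 0.32, adjusted p = 0.158). Mthfd2l, the close relative of Mthfd2 in mitochondria, read 11080, 14540 and 10710 on the Ntep-labelled arrays and 19250, 20180 and 20680 on the control arrays. Mthfd2 and Mthfd2l thus stood on opposite sides, since Mthfd2l differed by -0.74 (SE 0.18, adjusted p = 0.0742) with no overlap. Pycr3, a reductase that also forms proline, differed by 0.50 (adjusted p = 0.291).

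**Figure D4:**
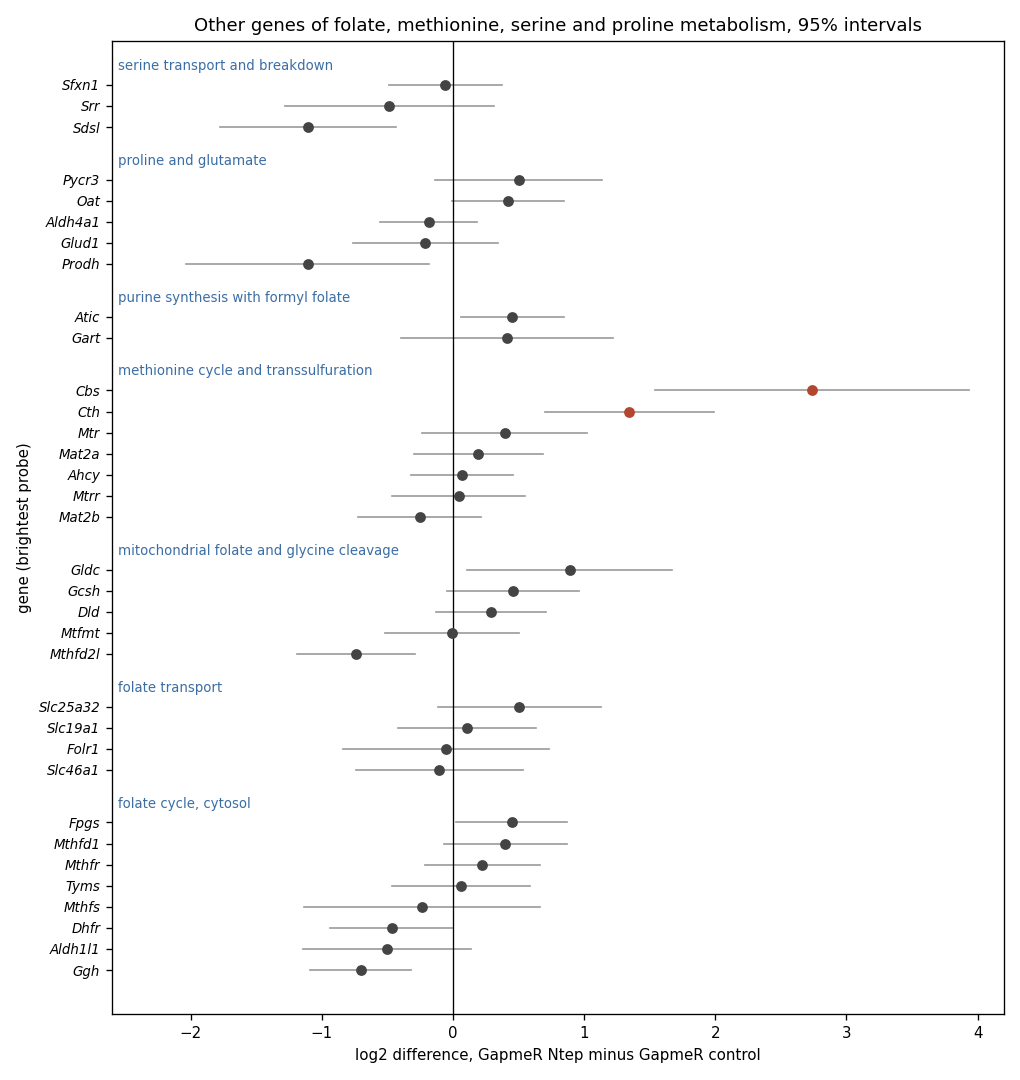
Log2 difference (GapmeR Ntep minus GapmeR control, n = 3 against 3) with its 95% interval for 34 of the 36 tested genes around the 10 enzymes, grouped by role, by the brightest probe of each gene; red points have an adjusted p under 0.05. Cbs (2.74) and Cth (1.35) are the red points, Sdsl and Prodh (both -1.11) are the lowest, and most intervals of the cytosolic folate cycle and folate transport include 0.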

How the data were processed

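RNA of 3T3 cells was hybridised to 6 Agilent mouse arrays in 1 colour, all on 1 slide. Per the labels, Agilent Feature Extraction 10.7.3.1 was used on the scans. The authors deposited the signal of each spot as a linear intensity, corrected for background but not scaled between arrays. A second deposited table holds the authors' quantile-normalized intensities with a floor of 20. For the probes of the 10 genes it differed from the values computed here by at most 0.019 (log2). Other deposited columns used here flag spots well above background, saturated or outlying. The study's supplementary comparison lists were not used.

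Spots of the same probe were averaged, the signals quantile normalized and floored at 20, and log2 values fitted with limma 3.58.1 (R 4.3.3) without pairing. The 30990 probes whose mean reached 50 in at least 1 group were tested, with Benjamini-Hochberg adjustment over all of them. All p-values are two-sided, and intervals are 95% intervals of limma. The variance prior was estimated over tested probes, since dim probes at the floor have no spread. These settings follow the parameters the study states, with limma in place of its t-test. Probe coordinates (mm9) were taken from the scanner files. The number of arrays limits the precision: an exact permutation test of 3 against 3 cannot fall below 0.1.

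The study's supplementary documentation numbers the experiments 1 to 3. Residual correlations within experiments were 0.466, 0.300 and 0.254, against a range of -0.327 to 0.126 between experiments, so the numbers were taken to pair the arrays, and a fit with the experiment as a block was run beside the unpaired one. Both fits were checked on simulated data with few changed probes, where signs and sizes were recovered, but after adjustment the unpaired fit called few of the smallest changes and the blocked fit made no call. The simulated noise was independent between arrays, so the blocked fit was not checked where arrays of an experiment deviate together.

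The 10 genes, the marker lists and the wider pathway list were chosen with earlier results of these data known. All 10 genes are named with every probe, beside the target, Atf4 and Myc. Of the wider list, genes past the adjusted p are named, the 5 with the largest absolute difference and close relatives of the 10 genes. The brightest probe stands for a gene. A few genes of the wider list enter its counts but are not reported here by name. Sequences are RefSeq promoter windows, and motif matches are a description.

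Other scalings, background corrections, floors, filters, fits and the omission of each array were tried as alternatives. The prior over all probes and the omission of experiment 1 were chosen after seeing the data.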

Additional observations from a re-analysis of the deposited data

How the results depend on the processing

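Phgdh, Psph, Shmt1, Mthfd2, Aldh1l2, Aldh18a1 and Pycr1 kept their direction under all 20 alternatives run for them. Scaling to the 75th percentile, which moved the median of all tested probes from 0.06 to 0.22, turned Mthfd1l to 0.028, and array weights turned it to 0.040. When 1 array was left out, Mthfd1l ranged from -0.248 to 0.085, Shmt2 from -0.242 to 0.161 and Psat1 from -0.041 to 0.082, and the turns came without GapmeR Ntep replicate 1 and, for Psat1, also without GapmeR control replicate 1 (-0.010). Without experiment 1 these were 0.102, 0.051 and -0.068. The count of the 10 genes past the adjusted p was 1 (Mthfd2) with normexp, with a filter on probes well above background or with an intensity trend, 3 with the experiment as a replicate block, 5 with array weights (Psph, Shmt1, Mthfd2, Aldh1l2 and Aldh18a1), and 0 to 1 when 1 array was left out. Of all 30990 tested probes, 4292 passed with the block and 10260 with array weights. Mthfd2 passed in 6 of the 20 alternatives (adjusted p 0.0068 to 0.244). At the study's fold and p limits 2 genes passed with the block. The share of all tested probes past these limits with the block is not given here, so this count has no measure beside it. None passed (0) without the filter on dim probes, by the methods' t-test, with the variance prior over all probes, with or without the block, or without experiment 1, and 0 to 1 passed when 1 array was left out. The median of the 10 genes was 0.47 with 75th percentile scaling, 0.38 with array weights, 0.38 without experiment 1 and 0.25 to 0.38 when 1 array was left out. Of the wider list, where 2 passed higher, 4 passed with normexp (1 higher, 3 lower) or the intensity trend (2 and 2), 5 with the well above background filter (2 and 3) and 15 with array weights (8 and 7). A count of 1 was higher with 75th percentile scaling, but lower without the filter on dim probes and with the prior over all probes, where Cbs and Cth did not pass. None (0) passed by the methods' t-test, with that prior and the block, or without experiment 1. When 1 array was left out, 0 to 1 passed. The cause of these shifts was not tested. The block changed no other call among the 10 genes, Cbs and Cth.

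Over all tested probes, 1642 passed the adjusted p in the unpaired fit. This count was 4292 with the block and 10260 with array weights, in which the arrays of experiment 1 weighed least. It was 2557 with normexp, 2707 with the trend, 1034 with block and prior over all probes and 285 by the methods' t-test. The count was 0 without GapmeR control replicate 2, GapmeR Ntep replicate 3 or experiment 1, and 3 without GapmeR control replicate 3. Other filters changed the number of probes tested. With the well above background filter 2884 of 25333 passed, and without a filter 564 of 55681. Probes near background, such as that of Cbs on the control arrays, limit how precisely a difference can be given.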
